A study of Mus musculus with 6 samples.

Results

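The extracellular matrix of the liver and the perivascular cells that make much of it were examined through 41 genes, chosen by name from the 41838 rows of a deposited table of gene expression. The genes fall into 8 groups by role: markers of hepatic stellate cells, fibrillar collagens, collagens VI and XIV, basement membrane components, matrix glycoproteins and proteoglycans, cytoskeletal genes of activated cells, matrix proteases with their inhibitors and cross-linkers, and TGF-beta ligands. All 41 symbols were found in the table. The choice of genes used no measured value from the table, but it was made with earlier results of these data known.

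The samples were whole livers of 6 mice aged 9 weeks. The 3 control animals carried the floxed allele of Alkbh5 (Alkbh5flox/flox), and the 3 knockout animals were named Alkbh5-HKO in the study's design text and Alkbh5-CKO in its sample titles and genotype labels. They are called flox 1 to 3 and HKO 1 to 3 here. ALKBH5 is a demethylase that removes N6-methyladenosine from RNA, and the study asked how its loss affects the liver. Not given in the sources used here were the Cre line, the cell types in which it acts and the sex of the animals, and no label describes an injury or a fibrogenic treatment. Poly(A) RNA was sequenced, and values were FPKM, which scales the reads of a gene by its length and by a size of its library. The size the authors used was 0.925 to 1.08 times the recovered reads, so it was not depth alone.

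Hepatic stellate cells lie between hepatocytes and the sinusoidal endothelium and store vitamin A as retinyl esters when at rest. After injury they respond to PDGF and TGF-beta, lose their vitamin A, gain a contractile cytoskeleton and secrete fibrillar collagens, which makes them the main source of scar matrix. Matrix metalloproteinases cut this matrix, TIMP proteins inhibit the metalloproteinases, and lysyl oxidases cross-link collagen. Because each library came from whole liver, fewer cells of a type and less RNA per cell cannot be told apart in any value below.

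The upstream sequences of 3 members are shown because these genes stand for the resting cell, its growth factor receptors and its collagen product. Lrat makes the retinyl esters that stellate cells store, Pdgfra encodes PDGF receptor alpha, and Col3a1 encodes the chain of collagen III, which had the highest FPKM of the 5 fibrillar collagen members. Each window is the 250 bases before the start of the RefSeq transcript on GRCm38.p6, printed 5′ to 3′ on the gene's own strand. The windows are chr3:82903975-82904224 on the minus strand for Lrat, chr5:75152001-75152250 on the plus strand for Pdgfra and chr1:45311288-45311537 on the plus strand for Col3a1. The Pdgfra window lies inside the gene as the deposited expression values place it, from 75151400 to 75198211. It is therefore not upstream of the start of the gene that was measured. Capitals mark matches on either strand to the CCAAT motif, to the GC box motif GGGCGG or to the TATA box motif TATAAA.
Lrat: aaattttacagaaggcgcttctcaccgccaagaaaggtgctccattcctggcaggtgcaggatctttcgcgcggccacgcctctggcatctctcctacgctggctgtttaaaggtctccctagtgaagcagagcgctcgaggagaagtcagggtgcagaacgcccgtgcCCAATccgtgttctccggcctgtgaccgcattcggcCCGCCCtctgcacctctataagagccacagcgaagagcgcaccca
Pdgfra: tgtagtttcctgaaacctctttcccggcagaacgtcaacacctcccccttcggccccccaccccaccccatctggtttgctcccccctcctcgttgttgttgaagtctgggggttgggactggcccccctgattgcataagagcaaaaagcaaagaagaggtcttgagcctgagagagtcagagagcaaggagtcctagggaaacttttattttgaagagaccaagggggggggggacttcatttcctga
Col3a1: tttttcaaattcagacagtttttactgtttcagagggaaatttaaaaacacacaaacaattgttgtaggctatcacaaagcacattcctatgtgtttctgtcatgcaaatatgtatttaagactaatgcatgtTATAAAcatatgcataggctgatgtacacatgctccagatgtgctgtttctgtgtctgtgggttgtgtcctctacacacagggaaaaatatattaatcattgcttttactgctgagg
The Lrat window held CCAAT from 81 bases before the start and, on the other strand, GGGCGG from 45 bases before it. Its GC content was 59.2%. The Col3a1 window was the most AT-rich of all the members' windows, at 35.2% GC, and held TATAAA from 117 bases before the start. The Pdgfra window, at 54.4% GC, held none of the 3 motifs, which says only that these letters are not in this window.

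RefSeq windows were matched by gene identifier for 29 of the 41 members, 32 windows in all. CCAAT was found in 12 of the 32 (37.5%), against 33.8% of the 32851 windows of all genes. GGGCGG was found in 17 (53.1%), against 32.7%, and TATAAA in 4 (12.5%), against 12.4%. The members' windows were also richer in G and C than the rest, with a median GC content of 58% against 52.4%, and GGGCGG is itself made only of these bases. In 1 member window, matches to different motifs overlapped. An annotated exon of GENCODE vM21 overlapped 16 of the 32 windows, including those of Col4a1, Col4a2, Acta2 and Lamb1, and all 3 windows printed hold none.

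Alkbh5 itself (chr11:60537683-60558512, plus strand) was measured at 17.8, 16.8 and 14.8 FPKM in flox 1 to 3 and at 0.508, 0.443 and 0.476 FPKM in HKO 1 to 3. The groups did not overlap, and the HKO mean was 0.476 ± 0.0323 FPKM (SD, n = 3) against 16.5 ± 1.56 (SD, n = 3). Alkbh5 therefore fell in the libraries labelled as knockout, by 3.56 on the log2(FPKM + 1) scale (SE 0.12, limma adjusted p = 8.1e-05). Recovered depth ranged from 14907384 to 17034754 reads per library, and the 8 hepatocyte markers summed to between 44375 and 53757 FPKM in every library, as a liver label requires.

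No stellate cell or matrix gene passed the test between knockout and control livers. Of the 41 members, 27 had a mean of at least 1 FPKM over the 6 libraries and were tested with limma on log2(FPKM + 1). The test was adjusted by Benjamini and Hochberg's method over all 10453 genes tested, with a threshold of 0.05. None was called higher and none lower, against 51 calls (0.488%) over all genes tested. That total depended on single libraries: it was 2 without flox 1, 1 without flox 2, 70 without flox 3, 3 without HKO 1, 1 without HKO 2 and 50 without HKO 3. At an unadjusted p under 0.05 there was 1 member, Lamb1, where 17.0% of all genes tested reached that level, and limma with voom weights on recovered reads also called no member. The members' adjusted p-values ran from 0.271 to 0.939.

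In direction, 18 of the 27 fitted differences lay above 0 and 9 below, where 48.0% of all genes tested lay above 0. Their median was 0.13 on the log2(FPKM + 1) scale (range -0.34 to 0.51), against -0.02 for all genes tested. In 3 members, Col14a1, Lamb1 and Lamc1, all HKO libraries lay above all flox libraries, and in none did they lie below. These are 11.1% of the tested members, while the groups did not overlap in 25.4% of all genes tested, 12.8% above and 12.6% below. The 95% intervals of single members reached as low as -1.18 (Mmp14) and as high as 1.21 (Lum), which is 0.441-fold and 2.31-fold of FPKM + 1, so differences of that size in these genes were within the error.

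**Figure D1:**
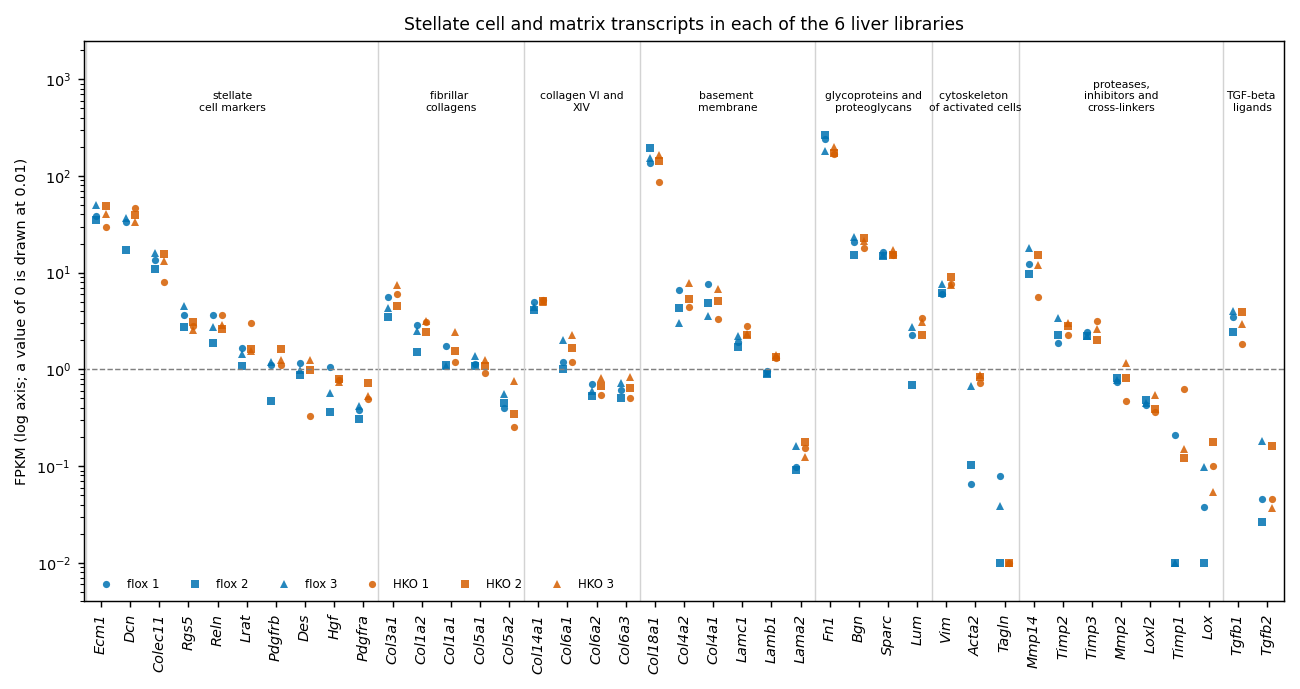
FPKM of the 41 members in each library on a log axis, grouped by role and ordered by mean level within a group; blue points are flox and orange points HKO libraries, marker shapes give the replicate number, and the dashed line marks 1 FPKM. Fn1 and Col18a1 stand far above the other members, and the points of both groups intermix for most genes.

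**Figure D2:**
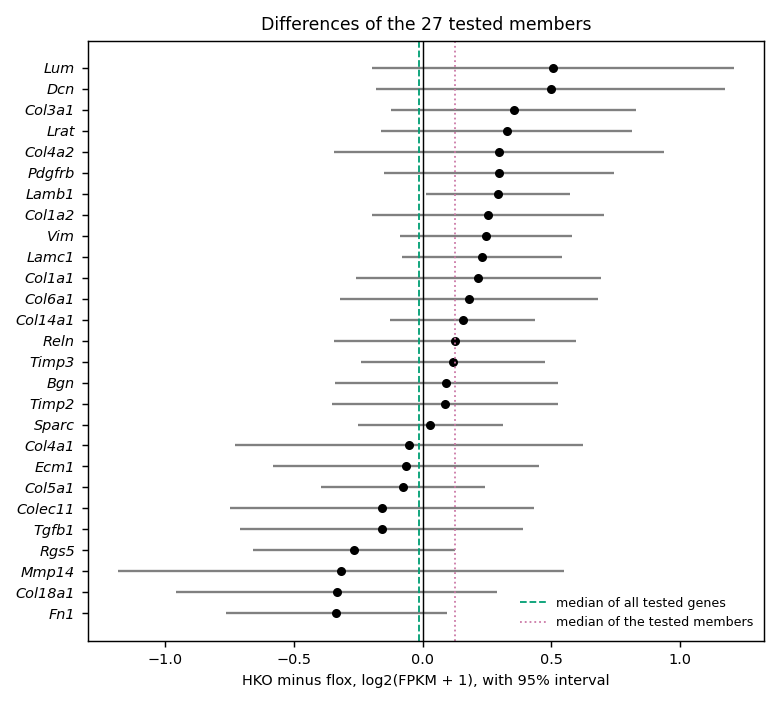
Fitted difference between HKO and flox on the log2(FPKM + 1) scale for each of the 27 tested members, with its 95% interval; vertical lines mark 0, the median of all genes tested and the median of these members. Every interval but that of Lamb1 includes 0.

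Levels spanned several orders of magnitude. Fn1 was the highest, with a mean of 205 FPKM over the 6 libraries, followed by Col18a1 at 146, Ecm1 at 40.1 and Dcn at 34.5. Fn1 and Col18a1, both of which hepatocytes are known to make as well, accounted together for between 57.7% and 75.4% of the members' summed FPKM. Bgn, Sparc, Colec11 and Mmp14 came next, at 20.2, 15.7, 12.9 and 12.2 FPKM, and the ranges of these neighbours over the libraries overlapped, as did those of Ecm1 and Dcn. The 14 members below a mean of 1 FPKM were Des, Pdgfra, Hgf, Col5a2, Col6a2, Col6a3, Lama2, Acta2, Tagln, Mmp2, Timp1, Lox, Loxl2 and Tgfb2. They include the main markers of activated stellate cells, Acta2, Tagln, Timp1 and Lox.

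The libraries did not contribute evenly to the members' values. Flox 2 lay below the mean of the 6 libraries in 25 of the 27 tested members (92.6%), against 46.4% of all genes tested, with a median deviation of -0.20 on the log2(FPKM + 1) scale. It was the lowest of the 6 in 13 members (48.1%), against 13.3% of all genes. HKO 1 was the lowest in 8 members (29.6%), which is close to its 29.2% over all genes, with a median deviation of -0.13. HKO 3 lay below the mean in only 4 of the 27 members. Without flox 2 the split of the members became 16 higher and 11 lower, with a median of 0.06. Without HKO 1 it was 24 higher and 4 lower of the 28 then above the filter, a share of 85.7% against 47.6% of all genes, with a median of 0.16. No member passed in either case.

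**Figure D3:**
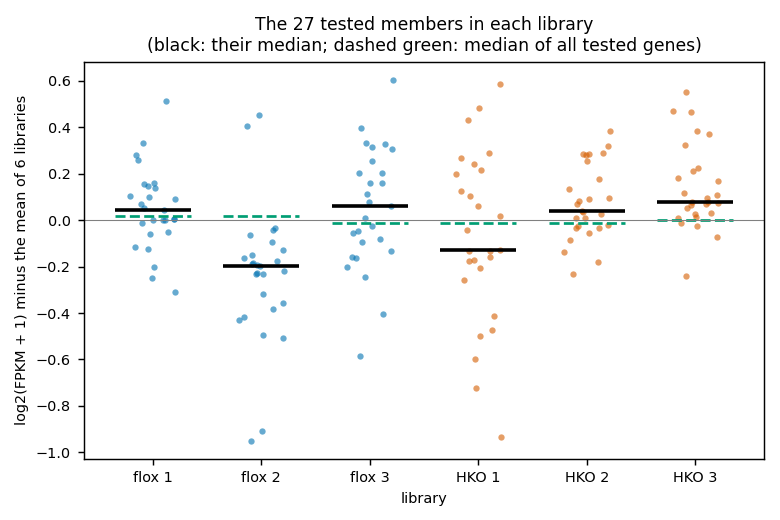
Deviation of each of the 27 tested members from its mean over 6 libraries, on the log2(FPKM + 1) scale, by library; black bars are the members' medians and dashed green bars the medians of all genes tested. The members sit low in flox 2 (median -0.20) and, with a wider scatter, in HKO 1 (median -0.13), while the medians of all genes stay near 0.

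Among the 10 stellate cell markers, 7 were tested, 4 with a difference above 0 and 3 below, and none passed. Dcn, a small leucine-rich proteoglycan that binds collagen and TGF-beta and is enriched in stellate cells and portal fibroblasts, was at 33.1, 17.1 and 37.1 FPKM in flox 1 to 3 and at 46.5, 39.6 and 33.4 in HKO 1 to 3. Flox 2 was the low library, and flox 3 lay above HKO 3, so the groups overlapped. The means were 29.1 ± 10.6 and 39.8 ± 6.58 FPKM (SD, n = 3 each), a difference of 0.50 on the log2 scale (95% interval -0.18 to 1.18, limma adjusted p = 0.422). Without flox 2 the difference was 0.17.

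Ecm1, a secreted glycoprotein that hepatocytes also make and that keeps TGF-beta latent, was at 38.1, 34.8 and 49.8 FPKM in the flox and 29.4, 48.5 and 40.3 FPKM in the HKO livers. The groups overlapped, although HKO 1 lay below every flox library. The difference was -0.06 (limma adjusted p = 0.900), and its sign changed to 0.010 when FPKM was rescaled to TPM. Colec11, a collectin of innate immunity with high expression in stellate cells, ranged from 10.9 to 16.1 FPKM in flox and from 7.94 to 15.5 in HKO livers, where HKO 1 was the lowest of all 6. Its difference was -0.16 (limma adjusted p = 0.771).

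Lrat, whose upstream sequence is printed above, was at 1.67, 1.08 and 1.43 FPKM in flox and 2.99, 1.62 and 1.53 in HKO livers. HKO 1 held the highest level and the remaining HKO libraries lay within the flox range, and the difference of 0.33 (limma adjusted p = 0.459) was 0.12 without HKO 1. Reln, an extracellular glycoprotein made by resting stellate cells, ranged from 1.89 to 3.68 FPKM in flox and from 2.63 to 3.63 in HKO livers (difference 0.13). Rgs5, a regulator of G protein signalling found in pericytes, was the marker with the most negative difference, -0.27 (limma adjusted p = 0.449), with ranges of 2.77 to 4.51 and 2.54 to 3.11 FPKM.

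The receptors for PDGF, the main mitogen of stellate cells, were low. Pdgfrb ranged from 0.473 to 1.18 FPKM in flox and from 1.12 to 1.61 in HKO livers, with flox 2 far below the other libraries (difference 0.30, limma adjusted p = 0.462). Pdgfra, the other receptor chain, was at 0.384, 0.310 and 0.417 FPKM in flox and 0.498, 0.731 and 0.531 FPKM in HKO livers, from 49, 34 and 54 against 63, 106 and 63 recovered reads. All HKO libraries lay above all flox libraries, but its mean was below the filter, and in the fit without a filter its limma adjusted p was 0.526. Of the remaining markers below the filter, Des, the muscle-type intermediate filament of mouse stellate cells, ranged from 0.869 to 1.15 FPKM in flox and from 0.326 to 1.24 in HKO livers. Hgf, the hepatocyte growth factor that stellate cells secrete, ranged from 0.364 to 1.05 and from 0.740 to 0.802 FPKM.

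Of the 5 fibrillar collagen genes, 4 were tested, 3 with a difference above 0 and 1 below, and none passed. Col3a1 was at 5.54, 3.51 and 4.28 FPKM in flox and 5.98, 4.53 and 7.41 in HKO livers. HKO 1 and HKO 3 lay above every flox library, while HKO 2 lay below flox 1. The means were 4.44 ± 1.02 and 5.97 ± 1.44 FPKM (SD, n = 3 each), a difference of 0.35 (95% interval -0.12 to 0.83, limma adjusted p = 0.417).

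Col1a2, the alpha-2 chain of collagen I, was at 2.91, 1.52 and 2.49 FPKM in flox and 3.12, 2.41 and 3.14 in HKO livers, with flox 2 again the lowest. Its difference was 0.25 (limma adjusted p = 0.528). Col1a1, the alpha-1 chain, which is made in excess over alpha-2 in the assembled protein, ranged from 1.09 to 1.75 FPKM in flox and from 1.2 to 2.42 in HKO livers, where HKO 3 was the highest library (difference 0.22, limma adjusted p = 0.614). The ratio of Col1a1 to Col1a2 within a library lay between 0.385 and 0.770 and its groups overlapped.

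Collagen V regulates the diameter of collagen I fibrils. Col5a1 ranged from 1.08 to 1.39 FPKM in flox and from 0.918 to 1.26 in HKO livers (difference -0.08, limma adjusted p = 0.796). Col5a2, below the filter, ranged from 0.403 to 0.554 and from 0.255 to 0.766 FPKM, with HKO 1 the lowest and HKO 3 the highest of all libraries.

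Of collagens VI and XIV, 2 of 4 genes were tested and neither passed. Col14a1, a fibril-associated collagen that sits on the surface of collagen fibrils, was at 4.98, 4.08 and 4.41 FPKM in flox and 5.20, 5.11 and 4.98 in HKO livers. The groups did not overlap, but HKO 3 and flox 1 differed only in the fourth digit. The means of 4.49 ± 0.459 and 5.10 ± 0.108 FPKM (SD, n = 3 each) gave a difference of 0.16 (95% interval -0.13 to 0.44, limma adjusted p = 0.537).

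Collagen VI forms beaded microfilaments around cells, and its 3 chains were all low. Col6a1 was at 1.18, 1.01 and 2.0 FPKM in flox and 1.18, 1.67 and 2.28 in HKO livers, with overlap (difference 0.18, limma adjusted p = 0.694). Col6a2 ranged from 0.525 to 0.822 and Col6a3 from 0.507 to 0.843 FPKM over the 6 libraries, both below the filter and with overlapping groups.

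The basement membrane genes held both the member closest to the threshold and the pair of chains whose ratio did not overlap between the groups. Of 6 genes, 5 were tested, 3 with a difference above 0 and 2 below. Lamb1, the laminin beta-1 chain (chr12:31265146-31329644, plus strand), was at 0.963, 0.898 and 0.907 FPKM in flox and 1.32, 1.33 and 1.41 in HKO livers. The spread within each group was small and the groups were well apart, with means of 0.923 ± 0.0355 and 1.36 ± 0.0493 FPKM (SD, n = 3 each). These values rest on 91, 73 and 87 against 124, 143 and 124 recovered reads. Counting error at such numbers allows a wider spread than the one seen. The difference was 0.29 (SE 0.12, 95% interval 0.01 to 0.57), with an unadjusted limma p of 0.0422 and an adjusted p of 0.271. Over all genes tested, 17.0% reached such an unadjusted p.

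Lamc1, the gamma-1 chain that pairs with beta-1 in most laminins, was at 1.94, 1.72 and 2.22 FPKM in flox and 2.78, 2.29 and 2.34 in HKO livers. Its groups did not overlap either, and the difference was 0.23 (95% interval -0.08 to 0.54, limma adjusted p = 0.414). The ratio of Lamb1 to Lamc1 lay between 0.409 and 0.602 with overlapping groups. Lama2, an alpha chain typical of muscle laminin, was nearly undetected, at 0.0914 to 0.176 FPKM.

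Col4a1 and Col4a2 encode the chains of the ubiquitous collagen IV network and lie head to head on chromosome 8, on opposite strands. Col4a1 was at 7.60, 4.89 and 3.56 FPKM in flox and 3.34, 5.14 and 6.79 in HKO livers. Col4a2 was at 6.64, 4.32 and 3.05 FPKM in flox and 4.38, 5.37 and 7.90 in HKO livers. The means were 5.35 ± 2.06 and 5.09 ± 1.73 FPKM for Col4a1 and 4.67 ± 1.82 and 5.88 ± 1.82 for Col4a2 (SD, n = 3 each). Each chain thus varied more within a group than its group means differed. Flox 1 and HKO 3 were the 2 highest libraries for both chains.

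The differences were -0.05 for Col4a1 (limma adjusted p = 0.939) and 0.30 for Col4a2 (limma adjusted p = 0.609), and the sign for Col4a1 changed to 0.015 on TPM. The ratio of Col4a1 to Col4a2 within a library was nevertheless tight: 1.14, 1.13 and 1.17 in flox and 0.763, 0.957 and 0.860 in HKO livers. Every HKO ratio lay below 1 and every flox ratio above it, with means of 1.15 ± 0.0179 and 0.860 ± 0.0970 (SD, n = 3 each). An exact two-sided permutation test gave p = 0.1, the smallest that 3 against 3 libraries allow, and an adjusted p of 0.7 over the 7 pairs of genes compared. This pair was singled out after its values were seen. The annotated genes share 22 bases at their starts, and no label says whether reads were assigned by strand, so reads from those bases cannot be told apart.

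Each of the remaining 6 ratios overlapped between the groups. They spanned 1.69 to 3.30 for Col6a1 over Col6a2, 7.73 to 23.5 for Col3a1 over Col5a2, 10.8 to 24.7 for Dcn over Lum and 0.349 to 0.654 for Pdgfra over Pdgfrb, besides the collagen I and laminin pairs above. Some of these pairs are neighbours in the genome: Col3a1 and Col5a2 lie 24624 bases apart on chromosome 1, Dcn and Lum 47337 bases apart on chromosome 10, and Col6a1 and Col6a2 85166 bases apart on chromosome 10.

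**Figure D4:**
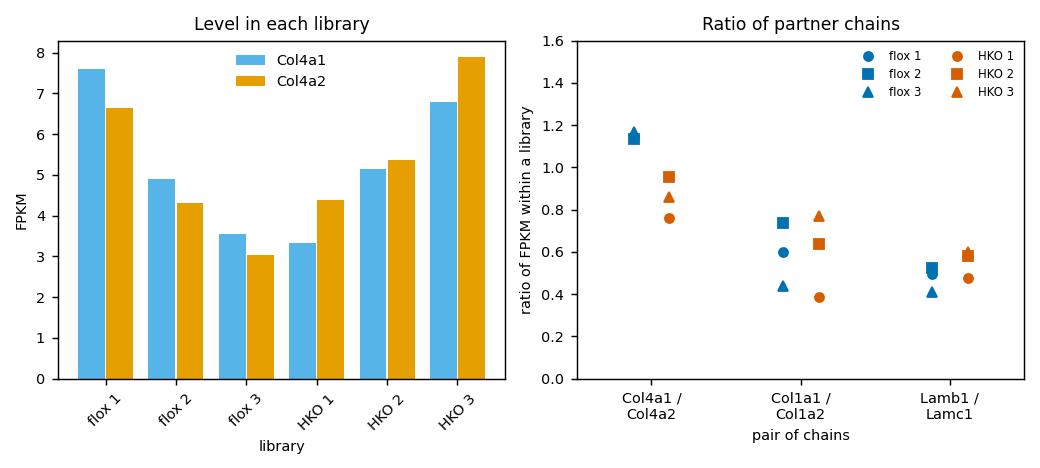
Left, FPKM of Col4a1 and Col4a2 in each library as bars from 0; right, the ratio of partner chains within each library for 3 pairs, blue for flox and orange for HKO. The Col4a1 to Col4a2 ratio is 1.13 to 1.17 in flox and 0.763 to 0.957 in HKO livers, while the groups intermix for the collagen I and laminin pairs.

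Col18a1, the source of endostatin and a collagen of vascular and epithelial basement membranes, was by far the most abundant member of this group. It was at 136, 195 and 154 FPKM in flox and 85.7, 143 and 165 in HKO livers. HKO 1 was the lowest library and flox 2 the highest, although flox 2 was the lowest library for 13 other members. The means of 162 ± 30.0 and 131 ± 40.9 FPKM (SD, n = 3 each) gave a difference of -0.33 (95% interval -0.96 to 0.29, limma adjusted p = 0.551), which was -0.06 without HKO 1.

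All 4 glycoproteins and proteoglycans were tested, 3 with a difference above 0 and 1 below, and none passed. Fn1, fibronectin, which hepatocytes secrete into plasma and stellate cells lay down in the matrix, was at 242, 268 and 180.5 FPKM in flox and 169, 172 and 200.03 in HKO livers. Flox 1 and flox 2 lay above every HKO library, while flox 3 lay within the HKO range. The means were 230.0 ± 44.9 and 180.2 ± 17.2 FPKM (SD, n = 3 each), a difference of -0.34 (95% interval -0.76 to 0.09, limma adjusted p = 0.395), the most negative of the tested members beside Col18a1.

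Lum, lumican, a proteoglycan that spaces collagen fibrils, had the largest positive difference of all tested members, 0.51 (95% interval -0.20 to 1.21, limma adjusted p = 0.430). It was at 2.24, 0.694 and 2.77 FPKM in flox and 3.40, 2.29 and 3.09 in HKO livers. Flox 2, with 20 recovered reads, was the library that stood apart, and without it the difference was 0.16. Bgn, biglycan, a related proteoglycan, was at 20.6, 15.1 and 23.2 FPKM in flox and 18.1, 22.7 and 21.4 in HKO livers (difference 0.09, limma adjusted p = 0.817).

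Sparc, a collagen-binding matricellular protein, varied little, at 14.9 to 16.5 FPKM in flox and 15.2 to 17.1 in HKO livers. Its difference of 0.03 (95% interval -0.25 to 0.31, limma adjusted p = 0.916) was among the more precise of the set.

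Among the contractile and cytoskeletal genes of activated stellate cells, Acta2 and Tagln were rare, while Vim had a mean of 7.33 FPKM. Acta2, alpha smooth muscle actin, the usual marker of activation, was at 0.0656, 0.102 and 0.668 FPKM in flox and 0.727, 0.827 and 0.871 in HKO livers, from 3, 4 and 31 against 33, 43 and 37 recovered reads. All HKO libraries lay above all flox libraries, but flox 3 was close to the HKO range while flox 1 and flox 2 held almost no reads. Its mean was below the filter, and the limma fit without a filter gave an unadjusted p of 0.0250 and an adjusted p of 0.376.

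Acta2 is also made by vascular smooth muscle. Myh11, the defining myosin of that cell type, was at 0.107 to 0.184 FPKM in flox and 0.187 to 0.218 in HKO livers, and the 8 smooth muscle markers summed to 11.2 to 18.3 and 11.2 to 11.9 FPKM, most of it Mylk. Markers of mesothelium, the cell layer on the liver's surface, were low. The 7 markers summed to 0.770, 0.466 and 0.809 FPKM in flox and 1.21, 5.92 and 3.62 in HKO livers, so the sum was higher in every HKO library, and none reached the filter. In 4 of the 7 (Wt1, Gpm6a, Upk1b and Muc16) all HKO libraries lay above all flox libraries. This was so for 12.8% of all genes tested, a set that holds none of the 7. Msln, Upk3b and Lrrn4 overlapped, with HKO 1 within or below the flox range. Wt1, a defining factor, had 0, 0 and 1 reads in flox and 6, 9 and 4 in HKO livers. Muc16 had 0, 0 and 0 reads against 1, 25 and 8, so its separation rests on 1 read in HKO 1. Upk1b had 1, 1 and 2 against 7, 20 and 9 reads, and Gpm6a 5, 9 and 12 against 34, 49 and 39. The part of these cells in the Acta2 and Pdgfra values was not tested.

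Tagln, transgelin, an actin-binding protein of contractile cells, had 2, 0 and 1 reads in flox and 0 in each HKO library, where a count of 0 allows up to 3 reads, or 0.118, 0.103 and 0.126 FPKM. No difference was detectable at this depth. Vim, vimentin, the intermediate filament of mesenchymal cells that endothelial and immune cells also make, was at 5.95, 6.20 and 7.72 FPKM in flox and 7.63, 9.04 and 7.42 in HKO livers. Flox 3 lay within the HKO range, and the difference was 0.25 (95% interval -0.09 to 0.58, limma adjusted p = 0.419).

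**Figure D5:**
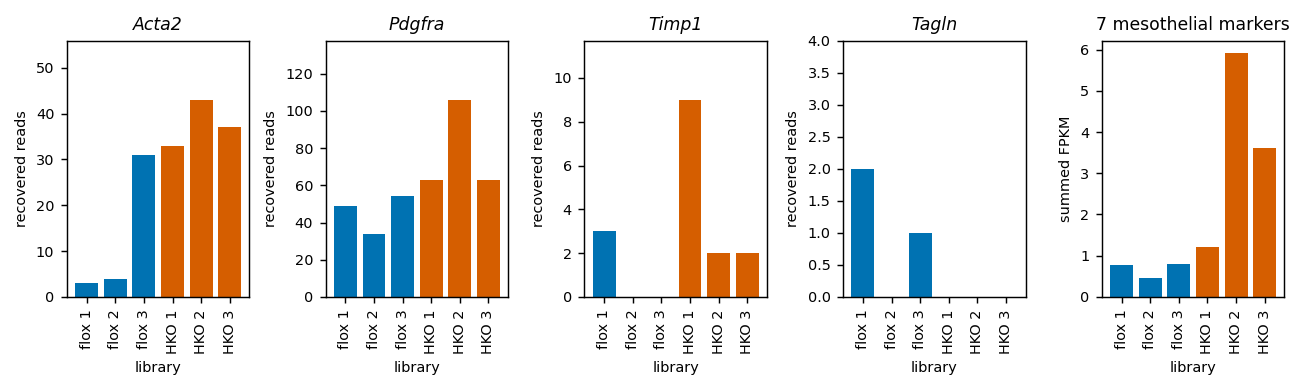
Recovered reads of 4 members below the filter and the summed FPKM of 7 mesothelial markers, in each library, as bars from 0 in blue for flox and orange for HKO. Acta2 has 3 and 4 reads in flox 1 and flox 2 against 31 to 43 in the other libraries, Tagln has at most 2 reads, and the mesothelial sum is highest in HKO 2 and HKO 3.

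Of the 7 genes for proteases, inhibitors and cross-linkers, 3 were tested, 2 with a difference above 0 and 1 below, and none passed. Mmp14, a membrane-bound metalloproteinase that activates the gelatinase MMP2, was at 12.3, 9.74 and 18.0 FPKM in flox and 5.54, 15.3 and 12.1 in HKO livers. HKO 1 was the lowest and flox 3 the highest, with overlap, and the difference of -0.32 was the least precise of this group (95% interval -1.18 to 0.55, limma adjusted p = 0.686). Without HKO 1 it was 0.07. Mmp2, below the filter, ranged from 0.735 to 0.809 FPKM in flox and from 0.468 to 1.17 in HKO livers.

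Timp2, an inhibitor that also takes part in MMP2 activation, was at 1.87, 2.25 and 3.39 FPKM in flox and 2.24, 2.79 and 2.98 in HKO livers (difference 0.09, limma adjusted p = 0.832). Timp3, an inhibitor bound to the matrix, ranged from 2.20 to 2.42 and from 2.02 to 3.18 FPKM (difference 0.12, limma adjusted p = 0.714). Timp1, the inhibitor most induced in fibrosis, had 3, 0 and 0 recovered reads in flox and 9, 2 and 2 in HKO livers, too few for a comparison.

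The cross-linkers were also below the filter. Lox had 3, 0 and 8 reads in flox and 8, 16 and 4 in HKO livers, and Loxl2 ranged from 0.359 to 0.539 FPKM over all 6 libraries with overlapping groups.

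Tgfb1, the main fibrogenic cytokine, was at 3.48, 2.42 and 3.99 FPKM in flox and 1.84, 3.89 and 2.94 in HKO livers, again with HKO 1 the lowest. The difference was -0.16 (95% interval -0.71 to 0.39, limma adjusted p = 0.751). Tgfb2, a related ligand, was near the limit of detection, with 4, 2 and 16 reads in flox and 4, 16 and 3 in HKO livers.

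Genes of the same pathways outside the 41 members gave no calls either. Of 25 genes of TGF-beta and PDGF signalling, 12 were tested, 10 with a difference above 0 and 2 below (median 0.14). Pdgfa, a PDGF ligand chain, was at 2.24 ± 0.502 FPKM in flox and 3.20 ± 0.297 in HKO livers (SD, n = 3 each) without overlap, a difference of 0.38 (limma adjusted p = 0.260), and Smad2, a signal transducer of TGF-beta, also did not overlap, with a difference of 0.12 (limma adjusted p = 0.641).

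Of 21 genes for the processing of collagen, 12 were tested, 5 with a difference above 0 and 7 below (median -0.10), and in 5 the HKO libraries lay below all flox libraries (41.7%, beside 12.6% of all genes tested). Bmp1, the protease that removes the C-terminal propeptide of fibrillar procollagens, was at 34.3, 41.4 and 31.1 FPKM in flox and 17.3, 22.1 and 23.3 in HKO livers. It was lower in every HKO library, by -0.74 on the log2 scale (95% interval -1.14 to -0.34, limma adjusted p = 0.0997), and so missed the threshold. P4ha2, a prolyl hydroxylase subunit that stabilises the collagen helix, was at 2.34 ± 0.820 FPKM in flox and 1.03 ± 0.0830 in HKO livers (SD, n = 3 each), with a difference of -0.69 (limma adjusted p = 0.148).

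Among 40 other matrix components 14 were tested, 6 with a difference above 0 and 8 below (median -0.09). The groups did not overlap in 7 of the 14 (50%, beside 25.4% of all genes tested), 1 above and 6 below. Col27a1, a fibrillar collagen of cartilage, was at 7.25 ± 2.19 FPKM in flox and 3.72 ± 0.430 in HKO livers (SD, n = 3 each; difference -0.78, limma adjusted p = 0.135). Lamb3, a chain of epithelial laminin, had a difference of -0.92 (limma adjusted p = 0.196). Of 16 other matrix proteases 5 were tested, 2 with a difference above 0 and 3 below.

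Of 20 other genes of stellate cells 14 were tested, 7 in each direction. Tmem56 was at 55.1, 42.2 and 36.4 FPKM in flox and 30.2, 17.5 and 21.9 in HKO livers, a difference of -0.92 without overlap (limma adjusted p = 0.124). Which liver cells gave the Tmem56 reads was not tested. Over the 5 lists together, 57 of 122 genes were tested, 30 with a difference above 0 and 27 below, with a median of 0.01. None passed with limma, and 14 (24.6%) had an unadjusted p under 0.05, beside 17.0% of all genes tested. In 15 (26.3%) the groups did not overlap, beside 25.4% of all genes tested. HKO lay above in 3 of them (5.26%, beside 12.8%) and below in 12 (21.1%, beside 12.6%).

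Other cells of the liver also express several members, and their markers are given here as summed FPKM. Portal fibroblast markers summed to 13.2 to 23.0 FPKM in flox and 15.0 to 21.7 in HKO livers, and sinusoidal endothelial markers to 32.1 to 44.0 and 36.3 to 42.7, both with full overlap. Most of the portal fibroblast sum was Gas6. Kupffer cell markers summed to 196 to 294 and 199.9 to 358 FPKM and markers of recruited monocytes to 27.9 to 52.7 and 33.4 to 41.4, also with overlap. Most of the monocyte sum was Lyz2, at 26.8 to 50.8 FPKM in flox and 29.4 to 36.7 in HKO livers. Ly6c2 and Ccr2 were higher in every HKO library, which was so for 12.8% of all genes tested. Their means were 0.506 and 0.212 FPKM in flox and 2.55 and 0.353 in HKO livers. Ccr2 was below the filter and so not tested. The groups overlapped for Lyz2, Itgam, S100a4 and Chil3. Erythroid markers summed to 352 to 674 FPKM in flox and 105 to 209 in HKO livers. Of the 6, 5 were tested, and all 5 were lower in every HKO library, beside 12.6% of all genes tested. The cholangiocyte sum, at 26.2 to 36.4 and 20.7 to 23.3 FPKM, was nearly all Spp1, and the groups overlapped for each of the other 5 markers (Krt7, Krt19, Epcam, Sox9 and Cftr). The adipocyte sum, at 4.49 to 12.9 and 2.11 to 2.85 FPKM, was nearly all Cidec, while Adipoq and Plin1 had at most 1 read in a library and Retn had 0 in each. The lymphocyte sum was higher in every HKO library, at 2.68 to 4.38 against 5.11 to 7.94 FPKM, and Gzma and Nkg7 were the markers in it whose groups did not overlap, while those of the T cell markers Cd3e, Cd3g, Cd8a and Cd4 did. The part of these differences in the members' values was not tested.

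Within those lists the genes that passed, and up to 2 more per list whose groups did not overlap, had differences of -0.78 for Apoa1, -0.55 for Hnf4a, -0.40 for Stab2, 0.28 for Oit3, -0.50 for Spp1, 1.14 for Ly6c2, 1.10 for Gzma, 0.48 for Nkg7, -1.95 for Hbb-bt, -1.98 for Hba-a1, -1.80 for Hba-a2 and -1.19 for Cidec. The hepatocyte marker Alb, left out by the limit of 2, went the other way from Apoa1 and Hnf4a. It was higher in every HKO library, with a difference of 0.35 (limma adjusted p = 0.316). Of these only Hbb-bt, a beta-globin gene, passed (limma adjusted p = 0.0373). The call was lost when single libraries were left out, with limma adjusted p-values of 0.153 without flox 1, 0.118 without flox 2, 0.111 without HKO 1 and 0.121 without HKO 2. Without HKO 3, Ly6c2 and Hba-a2 passed, at 0.0382 and 0.0476. Hba-a1 and Hba-a2 are near-identical copies, so the split of reads between them is uncertain.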

How the data were processed

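Poly(A) RNA of 6 mouse livers was sequenced as paired reads. Per the labels, 3 independent biological replicates were used in each group. The authors aligned reads to GRCm38.p6 with HISAT2 2.0.5 and counted them with featureCounts 1.5.0-p3, per the series' design text, while CASAVA and DESeq2 1.20.0 appear among the tools of the submitters' processing notes. Not given in the sources used here were the annotation release and the strand setting. The authors deposited 1 table of FPKM values per gene, with coordinates. Multiplying FPKM by gene length gave steps of whole reads in all 6 libraries (100% of values, tolerance 0.001), from which depths of 14907384 to 17034754 reads were recovered. The library size used by the authors was 0.925 to 1.08 times that sum. The median-of-ratios factor of the deposited values was the same in all 6 libraries, 1.00828, so they were already scaled to that measure.

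Genes with a mean of at least 1 FPKM over the 6 libraries (10453) were compared as log2(FPKM + 1), HKO minus flox, with limma 3.58.1 in R 4.3.3 (trended, robust variances, pseudocount 1) and Benjamini-Hochberg adjustment over all of them at 0.05. A fold change on this scale understates changes of low genes. The script was tested on simulated data. Counting error grows below 1 FPKM, so reads are given for some of the genes there, and FPKM alone for the rest. All 6 columns of values were used. Ratios of gene pairs were compared by exact two-sided permutation.

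The members, gene lists and rules were chosen with earlier results of these data known. Named with every library's value were members whose groups did not overlap, the 2 highest in each role group and the 4 overlapping members with the largest differences. From each other list, genes that passed and up to 2 whose groups did not overlap and whose differences were largest were named. Of the 200 symbols in the other lists, 199 were found by name and 1 through RefSeq. Alternatives were other pseudocounts, filters, scalings, variance models, voom on recovered reads, a replicate block and leaving out each library, and the members without Fn1 and Col18a1 were added after seeing the data.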

Additional observations from a re-analysis of the deposited data

How the results depend on the processing

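In every setting tried, limma with or without voom called 0 members higher and 0 lower, and the members' adjusted p-values stayed between 0.185 and 0.993. The median difference of the tested members, 0.13, ran from 0.06 to 0.18 with single libraries left out and was -0.011 for the 12 members with a mean of at least 5 FPKM. Without Fn1 and Col18a1 it was 0.16. Over all genes, the 51 calls became 1 with no filter on low values, where 2514 of 23371 genes had an unadjusted p under 0.05, 9 with the replicate block and 120 with voom on recovered reads. Leaving out libraries gave 1 to 70 calls: 2 without flox 1, 1 without flox 2, 70 without flox 3, 3 without HKO 1, 1 without HKO 2 and 50 without HKO 3. The cause was not tested. Replicate numbers are only numbers here: deviations of same-numbered libraries correlated at 0.15, -0.14 and -0.05, some libraries correlated more with another number, and with the replicate block the members' median was 0.13 and 0 passed. Median-of-ratios scaling could change no value, because the deposited values had the same factor in every library, so it is no check on scaling.

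The counts that follow include the median-of-ratios setting, which could change no value. Of single members' values, 400 kept their direction and side of the threshold and 17 reversed. Of the other genes named, 300 values did so, 3 gained a call (Hba-a1 with the replicate block, Ly6c2 and Hba-a2 without HKO 3) and 5 lost one, all of Hbb-bt. Ecm1 was 0.010 on TPM, 0.0078 when scaled to summed reads and 0.0086 with voom, and Col4a1 was 0.015, 0.013 and 0.010. With single libraries left out, Bgn ran from -0.077 to 0.22, Col4a1 from -0.27 to 0.19, Colec11 from -0.34 to 0.10, Ecm1 from -0.23 to 0.13, Mmp14 from -0.59 to 0.071, Reln from -0.051 to 0.30, Sparc from -0.022 to 0.072, Tgfb1 from -0.34 to 0.050 and Timp2 from -0.046 to 0.26. Depth limits Acta2, Tagln, Timp1, Lox, Tgfb2 and Lama2, which have at most 43 reads in a library.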

Other observations

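Some matrix genes outside the 41 members stood apart between the groups without passing the test. They were chosen after their values were seen. Efemp1, fibulin-3, an elastic fibre protein, was at 1.19, 1.01 and 1.54 FPKM in flox and 2.48, 2.01 and 2.34 in HKO livers, a difference of 0.55 on the log2(FPKM + 1) scale (limma adjusted p = 0.128). Col4a5, a collagen IV chain of specialised basement membranes, was at 0.218, 0.417 and 0.261 FPKM in flox and 0.772, 0.524 and 0.814 in HKO livers. Its mean was below the filter, and without a filter its limma adjusted p was 0.319. Col12a1, a fibril-associated collagen related to collagen XIV, went the other way, at 0.276, 0.223 and 0.267 FPKM in flox and 0.0694, 0.0996 and 0.111 in HKO livers (limma adjusted p = 0.327 without a filter).

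Among the enzymes that hydroxylate collagen in the endoplasmic reticulum, the lysyl hydroxylases Plod1 and Plod3 and the prolyl 3-hydroxylase P3h1 lay lower in every HKO library and were chosen after their values were seen. Another lysyl hydroxylase, Plod2, did not follow them: it was far below the filter, at 0.0822 to 0.155 FPKM in flox and 0.0881 to 0.269 in HKO livers, and its groups overlapped. The groups also overlapped for P4ha1, P4hb and Crtap of the collagen processing list, with differences of -0.16, 0.24 and -0.03. P4ha2, given above, lay lower in every HKO library. Plod1 was at 4.83 ± 0.574 FPKM in flox and 3.40 ± 0.410 in HKO livers (SD, n = 3 each; difference -0.41, limma adjusted p = 0.206). Plod3 was at 9.14 ± 0.304 and 6.40 ± 0.492 FPKM (SD, n = 3 each; difference -0.46, limma adjusted p = 0.124). P3h1 was at 6.17 ± 0.852 and 4.46 ± 0.209 FPKM (SD, n = 3 each; difference -0.39, limma adjusted p = 0.209). None of these passed.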
